A study of Homo sapiens with 6 samples.

Results

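The genes described here encode the subunits and assembly factors of the proteasome, the protease that degrades proteins tagged with ubiquitin. They were the rows of the deposited table whose symbol has the form PSMA to PSMG followed by a number. The catalytic beta subunits and their interferon-inducible counterparts (PSMB5 to PSMB10) and the interferon-inducible activator genes PSME1 and PSME2 were left out. This gave 38 of 15024 genes: 11 of the core particle (PSMA and PSMB), 20 of the 19S regulatory particle (PSMC and PSMD), 4 chaperones of core assembly (PSMG), and 3 others, the activators PSME3 and PSME4 and the inhibitor PSMF1. PSMA8 and PSMB11 were not analysed here.

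RNA had been sequenced from 6 samples of the human cell line MDA-MB-231, which was established from a triple-negative breast tumour. All 6 were Mll3-null, that is, without the histone methyltransferase MLL3 (KMT2C), and all had been kept for 14 days in 10 µM forskolin, which activates adenylyl cyclase and so protein kinase A. Flow cytometry had divided the cells by integrin beta-4 (CD104) on their surface, into CD44+CD104high cells (n = 3; CD104high below), called a hybrid epithelial and mesenchymal state in the series design, and CD44+CD104-/low cells (n = 3; CD104low), called mesenchymal. The sources used here do not say whether the Mll3-null cells are 1 clone, and wild-type or untreated cells were not analysed here. The 3 replicates of a population are called biological, but no culture or day is named for them, so the spread behind each p-value may be technical.

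Between 49791498 and 60069719 recovered reads per library fell on the listed genes. ITGB4, which encodes CD104, was at 16463 ± 2616 scaled reads (reads divided by 1 size factor per library; SD, n = 3) in the population sorted as CD104high and at 1699 ± 503 (SD, n = 3) in CD104low. Of the markers of the line, VIM, CD44, KRT18 and EGFR were all detected, with a summed level of 66450.2 to 82286 in CD104high and 65453 to 69663 in CD104low. In the limma test described below, KRT18 and EGFR were higher in CD104high (log2 fold change 0.34 and 0.30, adjusted p = 0.0122 and 0.043). VIM and CD44 did not pass (0.061 and 0.048, limma adjusted p = 0.517 and 0.708). ERBB2 was read at 7747 to 8564 in CD104high and 6219 to 7012 in CD104low (0.33, limma adjusted p = 0.00621), and ESR1 and PGR were not analysed here. Among leukocyte markers PTPRC was not analysed here, and LAPTM5 and CD14 together gave 679 to 936 in CD104high and 319.8 to 404 in CD104low. Both were higher in CD104high (1.15 and 0.91, limma adjusted p = 0.00148 and 0.00446). Their part in the results was not tested. The endothelial marker PECAM1 was at 4.04 to 14.6, and CDH5 and the erythroid genes HBB and HBA1 were not analysed here.

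The proteasome is a barrel, the 20S core, closed at its ends by caps. The core is built of stacked rings: outer rings of alpha subunits, which form the gate, and inner rings of beta subunits, some of which carry the active sites. The 19S cap recognises ubiquitin chains, removes them, and unfolds and feeds in the substrate through a ring of ATPases. Its base holds the ATPases and ubiquitin receptors, and its lid the deubiquitinase. Dedicated chaperones assemble core and base separately. When proteasome activity is short, cells are known to raise many of these genes together through the transcription factor NFE2L1.

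Proteasome genes were lower in CD104high than in CD104low. All 38 genes passed the filter on low values, which required a scaled read count of at least 10 in at least 3 samples. Of them, 33 fell and 0 rose at an adjusted p under 0.05 (limma with an intensity trend on log2(value + 1), Benjamini-Hochberg over 14420 genes). By the same rule 43.4% of all genes tested changed: 21.6% fell and 21.8% rose. Among the 7961 genes with a mean of at least 1000 scaled reads, a level that most of the 38 reach, 31.4% fell. All 38 log2 fold changes were below 0, with a median of -0.43 and a range of -0.82 to -0.016, against a median of 0.019 over all genes tested. In 35 of the 38 genes every CD104high library lay below every CD104low library, which was so for 26.9% of all genes and 36.5% of those with a mean of at least 1000. The authors' deposited table called 34 of the 38 lower and 0 higher, against 22.2% of its genes called lower.

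**Figure D1:**
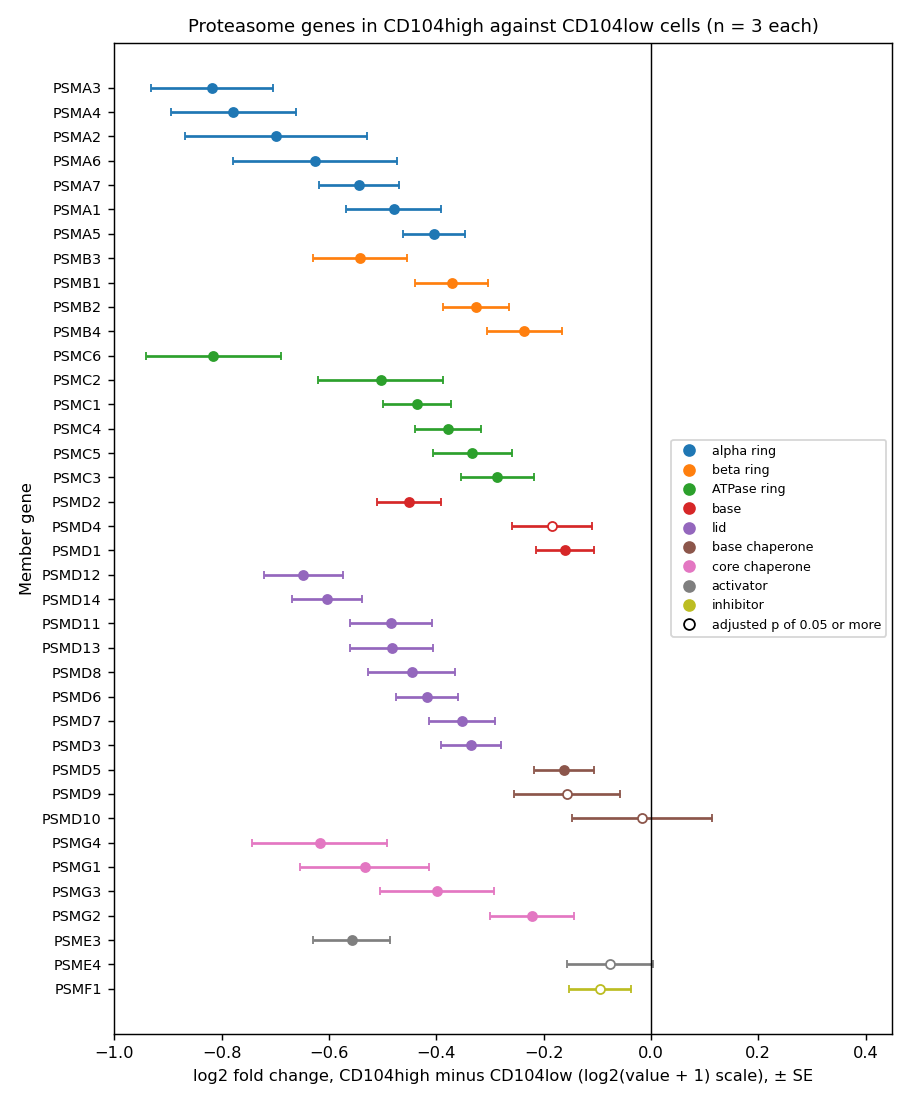
Log2 fold change of each proteasome gene, CD104high minus CD104low, with its SE (n = 3 each), grouped by role; open points have an adjusted p of 0.05 or more in limma. All 38 points lie below 0, from -0.82 (PSMA3) to -0.016 (PSMD10), and 5 are open.

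Taken as a share of the scaled reads on all listed genes, the 38 genes together made up 0.566%, 0.544% and 0.559% in the CD104high libraries and 0.753%, 0.698% and 0.747% in the CD104low libraries. The populations did not overlap, and replicate 2 of CD104low was the lowest of its group. These are bulk values relative to the other transcripts, so less proteasome RNA in every cell and fewer cells rich in it cannot be told apart. Core genes had a median log2 fold change of -0.54, assembly genes of -0.47 and 19S genes of -0.40. All 11 core genes and all 4 assembly genes fell, and 17 of 20 genes of the 19S particle. Within the core the alpha ring (median -0.63) lay lower than the beta ring (-0.35). The classes were not tested against each other, and their ranges overlapped, from -0.82 to -0.24 in the core and -0.82 to -0.016 in the 19S particle.

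Replicate 2 of CD104low had the lowest of its group's values in 33 of 38 genes, and replicate 2 of CD104high in 23 of 38. Relative to each gene's mean over CD104low, the median of the 38 genes was -0.39, -0.45 and -0.41 in the CD104high libraries and 0.034, -0.093 and 0.061 in the CD104low libraries, so that every CD104low library stood above every CD104high library. The median log2 fold change was -0.46 without replicate 2 of CD104low.

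**Figure D2:**
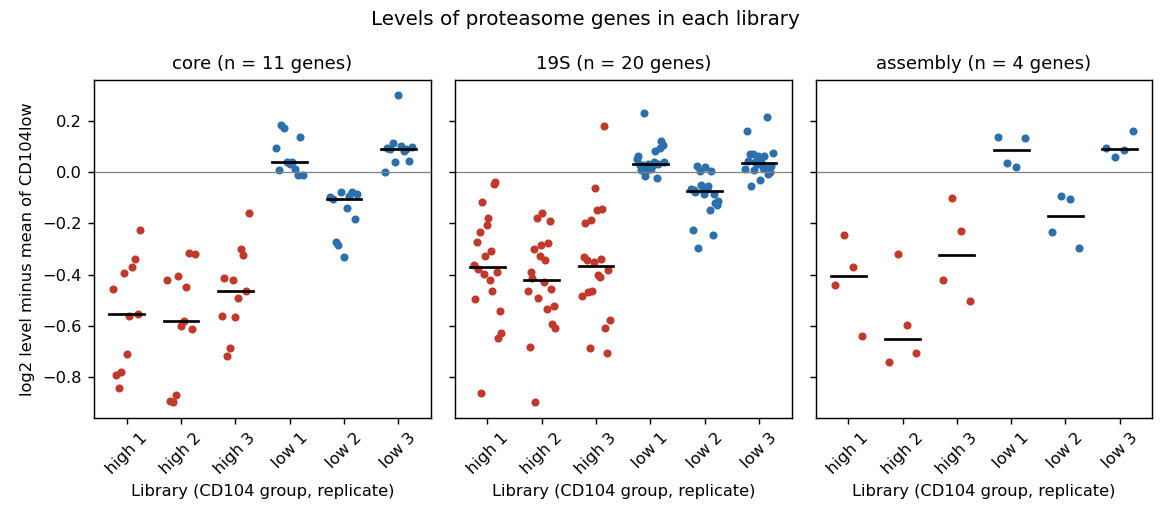
Log2 level of each proteasome gene in each library, minus that gene's mean over CD104low, for core, 19S and assembly genes; points are genes and black bars medians over genes. The core medians are -0.55, -0.58 and -0.46 in CD104high and 0.038, -0.11 and 0.09 in CD104low.

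Because the correction of each library for transcript length and GC content moved the values of many of these genes, its result is given beside them below. With it, 27 of the 38 genes fell and 0 rose, against 21.1% of the 14398 genes in that fit that fell, and 26 of the 27 were among the 33. The corrected median was -0.35 over all 38, -0.34 in the core, -0.31 in the 19S particle and -0.41 among assembly genes, and within the core -0.35 in the alpha ring and -0.21 in the beta ring. For 15 genes the corrected log2 fold change was smaller by over 1.5 times or changed sign. The correction uses 1 annotated transcript per gene, and that transcript may not be the one in these cells. Across the 38 genes, which share libraries and depth, the uncorrected log2 fold change had a Pearson r of 0.23 with GC content and 0.23 with log2 transcript length.

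**Figure D3:**
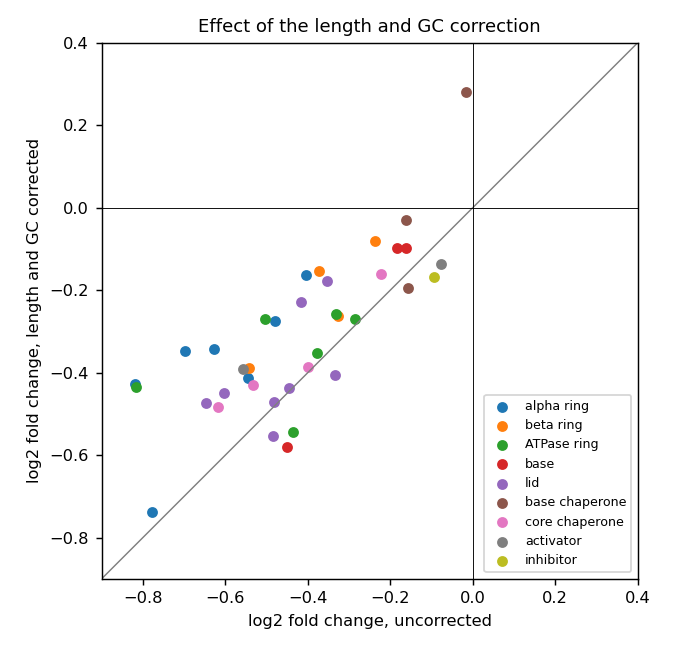
Log2 fold change of each proteasome gene before (x axis) and after (y axis) each library was corrected for transcript length and GC content, coloured by role, with the line of equal values. Most points lie above the line, that is, nearer to 0 after the correction, and PSMD10 moves to 0.28.

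NFE2L1 and NFE2L2 bind antioxidant response elements, with the core letters TGACNNNGC, and NFE2L1 is known to act through them on proteasome genes. RefSeq promoters (GRCh38.p14) were matched by symbol for 34 of the 38 genes, without PSMA7, PSMB1, PSMD4 and PSMG3. In the 250 bases before the start, searched on both strands, 8 of 34 (23.5%) held these letters, as did 12.2% of 11154 promoters of tested genes. They were 1 of 9 core promoters, 4 of 19 of the 19S particle and 2 of 3 of assembly genes, beside PSME4. The windows of 30 bases below show genes with the letters that fell (PSMB3, PSMD12, PSMD3, PSMG1) and that did not pass (PSMD9, PSME4), written along the gene's strand with the match in capitals.
PSMB3 (chr17:38752627-38752656, plus strand): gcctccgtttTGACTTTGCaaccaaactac
PSMD12 (chr17:67366723-67366752, minus strand): agacaaaaccTGACGCTGCaggctggagtg
PSMD3 (chr17:39980760-39980789, plus strand): tcccctttgtTGACTCGGCcatcggcctgc
PSMG1 (chr21:39183615-39183644, minus strand): gcccagggcaTGACAGCGCgggcgggcggt
PSMD9 (chr12:121888678-121888707, plus strand): cggcttccggTGACCCAGCtccgccctaag
PSME4 (chr2:53971008-53971037, minus strand, match on the other strand): cccggcggctGCAGCGTCAccagcagagcc

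Of the 8 genes with the element letters 6 fell, with a median log2 fold change of -0.28 over the 8, and of the 26 without them 24 fell, with a median of -0.45. The NF-Y box CCAAT was in 15 of 34 promoters (44.1%, against 34.6% of all), and 14 of these 15 genes and 16 of the 19 others fell. The E-box CACGTG was in 3 of 34 (8.82%, against 8.65%). The short cAMP response element TGACG was in 9 of 34 (26.5%, against 29%), and its letters overlap the element above in PSMD12 and PSME4. These are matches of letters and not binding sites.

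The alpha ring gates the entry to the core. PSMA3, an alpha subunit, read 6509, 6272 and 7095 in CD104high and 13257, 9661 and 12413 in CD104low. PSMA4, another alpha subunit, read 7439.8, 6997 and 7949.9 against 14398, 10485 and 13833. All libraries of CD104high lay below all of CD104low for both genes, and replicate 2 was the lowest of CD104low for both. PSMA3 fell by 0.82 on the log2 scale (SE 0.11, limma adjusted p = 0.000939), which was the largest fall of the 38 and put CD104high 43.3% lower. PSMA4 fell by 0.78 (SE 0.12, limma adjusted p = 0.00127). Corrected for length and GC content, they were at -0.43 and -0.74.

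PSMA7, the alpha subunit with the highest level per transcript length, read 20045, 19808 and 21050.3 against 30439, 26826 and 31751. PSMA5 read 10587, 10495 and 10389 against 14266, 13166 and 14277. Replicates of CD104high stood close together for both, and the populations did not overlap. PSMA7 fell by 0.54 (SE 0.074, limma adjusted p = 0.000848) and PSMA5 by 0.41 (SE 0.058, limma adjusted p = 0.00106), or by 0.41 and 0.16 with the correction.

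The other alpha subunits, PSMA1, PSMA2 and PSMA6, were read at far lower levels. PSMA1 read 959, 983 and 891 against 1407, 1231 and 1316. PSMA2 read 141, 131 and 184 against 246, 227 and 262. PSMA6 read 573, 619 and 634 against 960.4, 745 and 1157. Here too no CD104high library reached a CD104low library. They fell by 0.48, 0.70 and 0.63 on the log2 scale (SE 0.088, 0.17 and 0.15; limma adjusted p = 0.00309, 0.0106 and 0.011). With the correction PSMA1 was at -0.28, and PSMA2 (-0.35, limma adjusted p = 0.108) and PSMA6 (-0.34, 0.0644) did not pass.

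Each alpha subunit enters the ring once, but their levels per length differed widely. Per kilobase of transcript, the CD104low mean of PSMA2 was 165 scaled reads, of PSMA1 876 and of PSMA6 927, where the other 8 core genes lay between 2926 and 29791. In GENCODE 29 each of these 3 genes shares exons on its own strand with another protein-coding gene. PSMA1 (GRCh38 chromosome 11, 14504874 to 14643635) shares 814 exonic bases with AC018523.2, PSMA2 (GRCh38 chromosome 7, 42916857 to 42932223) 781 bases with AC010132.3, and PSMA6 (GRCh38 chromosome 14, 35278633 to 35317493) 919 bases with AL121594.1. Those genes were not analysed here, so how the reads were divided could not be checked, and the levels of the 3 subunits are uncertain. PSMD9 shares 1307 exonic bases with AC069503.2 and 436 with WDR66, and PSMF1 156 bases with AL031665.1, also on the same strand. Without these 5 genes, a choice made after seeing the data, 30 of 33 fell and 0 rose. Of the 38 genes, 10 share exonic bases with a listed gene on the opposite strand, and no source used here says whether strand was used in counting.

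**Figure D4:**
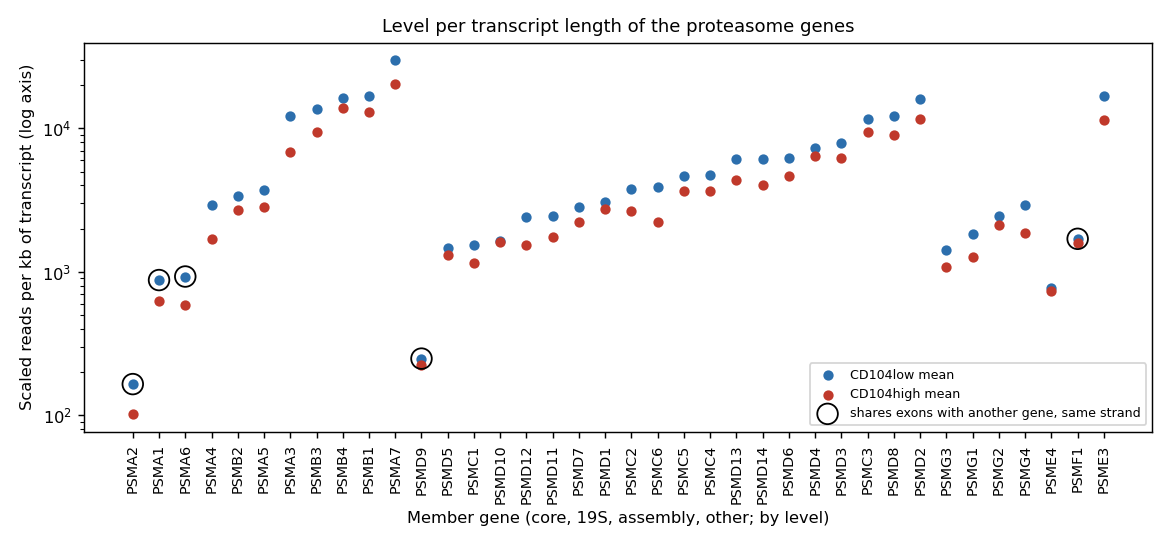
Mean scaled reads per kilobase of transcript (log axis) of each proteasome gene in CD104low and CD104high, ordered by class and level; rings mark genes that share exons with another gene on the same strand. PSMA2, PSMA1, PSMA6 and PSMD9 lie at the low end of their classes, with CD104low means of 165, 876, 927 and 248.

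The beta subunits kept among these genes carry no active site and shape the inner rings. PSMB3 read 7183, 6893 and 7635 against 11596, 9285 and 10848. PSMB1 read 12142, 11499 and 12746 against 15820.3, 14686 and 16595. PSMB2 read 7228, 7352 and 7323 against 9083, 8665 and 9744. The populations were apart in each. PSMB3 fell by 0.54 (SE 0.088, limma adjusted p = 0.00178), PSMB1 by 0.37 (SE 0.068, 0.00311) and PSMB2 by 0.33 (SE 0.062, 0.00359). With the correction PSMB3 was at -0.39, PSMB1 at -0.15 and PSMB2 at -0.26.

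PSMB4, whose tail helps to join the unfinished cores, read 13378, 12545 and 14007 against 15546, 14755 and 16753. Its groups did not overlap, but they lay closer than those of any other core gene by fold. It fell by 0.24 (SE 0.07, limma adjusted p = 0.0243). It did not pass without replicate 1 or 2 of CD104high (limma adjusted p = 0.0696 and 0.087), without replicate 1 or 3 of CD104low (0.0697 and 0.0923), without the trend (0.065) or with the correction (log2 fold change -0.081, 0.272). Of the subunits left out above, the constitutive catalytic PSMB5 was at -0.25 (limma adjusted p = 0.103) and the interferon-inducible PSMB9, for another active site, at 1.70 (0.000181). The other constitutive catalytic genes, PSMB6 and PSMB7, named after their values were seen, fell by 0.30 and 0.35 (limma adjusted p = 0.00629 and 0.00267). Of all 8 genes left out, 4 interferon-inducible genes rose, PSMB9 among them, and only these 2 fell, with a median of 0.32. Over all genes tested 21.8% rose and 21.6% fell. The PSMB5 libraries overlapped. With 1 library left out it ranged from -0.35 without CD104low replicate 2 (limma adjusted p = 0.0255) to -0.16 without CD104low replicate 3 (0.312). It was at -0.33 (0.0439) and -0.17 (0.297) with CD104high replicates 3 and 2 left out in turn, and at -0.14 (0.258) with the correction. With the replicate number as a block PSMB5 passed (limma adjusted p = 0.00235).

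The ATPase ring of the 19S base, PSMC1 to PSMC6, unfolds substrates and threads them into the core, and all 6 genes fell. PSMC6 read 4682, 4563 and 5278 against 9968, 6918 and 8922. PSMC2 read 8089, 7118 and 9067 against 11941, 9761 and 12768. PSMC1 read 5350.1, 4993 and 4923 against 7126, 6579.9 and 6946. CD104low replicate 2 was the lowest of its group in all of them, and still lay above every CD104high library. PSMC6 fell by 0.82 (SE 0.13, limma adjusted p = 0.00147), nearly as far as PSMA3, and was at -0.44 with the correction. PSMC2 fell by 0.50 (SE 0.12, limma adjusted p = 0.0087) and did not pass with the correction (-0.27, 0.0682). PSMC1 fell by 0.44 (SE 0.063, limma adjusted p = 0.00113), and was at -0.54 with the correction.

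PSMC4 read 5816, 5687 and 5961 against 7603, 7169 and 7953. PSMC5 read 6229, 5944 and 5298 against 7469, 7450.5 and 7044. PSMC3 read 15105, 13925 and 15913 against 18584, 17391 and 18785. The populations did not overlap in any of these ATPase genes. They fell by 0.38, 0.33 and 0.29 on the log2 scale (SE 0.062, 0.073 and 0.068; limma adjusted p = 0.00186, 0.00693 and 0.00973). With the correction PSMC4 was at -0.35, PSMC5 at -0.26 and PSMC3 at -0.27.

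In the base, PSMD2 docks the shuttle proteins that bring in ubiquitinated substrates, PSMD1 is its scaffold partner, and PSMD4 is a ubiquitin receptor. PSMD2 had the highest read count of the 38 genes and read 41864, 39170.3 and 39932 against 55474, 53283 and 56643. PSMD1 read 9399.5, 9022 and 8957 against 10101, 10238 and 10266. PSMD4 read 8501, 8046 and 9380.5 against 9946, 9234 and 10246. PSMD2 and PSMD1 did not overlap between populations, whereas replicate 3 of CD104high lay above replicate 2 of CD104low for PSMD4. PSMD2 fell by 0.45 (SE 0.06, limma adjusted p = 0.000792) and was at -0.58 with the correction.

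PSMD1 fell by 0.16 (SE 0.054, limma adjusted p = 0.0389), a call that ended without any 1 of the 6 libraries (limma adjusted p = 0.0628 to 0.11), with quantile normalization (0.158), without the trend (0.0779) and with the correction (-0.099, 0.147). PSMD4, at -0.18 (SE 0.074), did not pass (limma adjusted p = 0.0744). It did pass with CD104high replicate 3 left out (0.0233), with CD104low replicate 2 left out (0.0443), with TMM scaling (0.0479) and in the authors' deposited table (adjusted p = 0.0483). It also passed with the replicate number as a block (limma adjusted p = 0.0148). With the correction it was at -0.099.

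All 8 lid genes fell, with a median of -0.46 and the same direction with the correction (median -0.44). PSMD14, the deubiquitinase that cuts chains off the substrate, read 7683, 7791 and 7958 against 12189.8, 10984 and 12494. PSMD12, a scaffold subunit of the lid, read 6821, 7086 and 6548 against 11608, 9833 and 10674. For both genes the CD104high libraries stood close together and well below all CD104low libraries. PSMD14 fell by 0.60 (SE 0.065) with the smallest limma adjusted p of the 38 genes, 0.000403, and PSMD12 by 0.65 (SE 0.073, 0.000464). With the correction they were at -0.45 and -0.47.

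PSMD11, which spans lid, base and core, read 7637, 7288 and 6549.7 against 10660.2, 9426 and 9936. PSMD13, another scaffold subunit, read 8278, 8383 and 9251 against 12969, 11035 and 12244. PSMD8 read 13785, 13152 and 15029 against 20159, 17194 and 19883. Groups did not overlap, and CD104low replicate 2 was again the lowest of its group in each. They fell by 0.48, 0.48 and 0.45 on the log2 scale (SE 0.077, 0.077 and 0.081; limma adjusted p = 0.00164, 0.0017 and 0.00294). With the correction PSMD11 was at -0.55, PSMD13 at -0.47 and PSMD8 at -0.44.

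PSMD6 read 6619, 6599.6 and 6709 against 9035, 8469 and 9131. PSMD7, the partner with which PSMD14 forms a dimer, read 3811, 3717 and 3552 against 4838, 4537 and 4772. PSMD3 read 13555, 13579.5 and 13359 against 17426, 16258 and 17429. These lid genes were apart in every library as well. They fell by 0.42, 0.35 and 0.34 (SE 0.057, 0.062 and 0.056; limma adjusted p = 0.000896, 0.0026 and 0.00206). With the correction PSMD6 and PSMD7 were nearer to 0, at -0.23 and -0.18, and PSMD3 at -0.41.

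The chaperones that assemble the base, PSMD5, PSMD9 and PSMD10, leave the finished particle. The median over these 3 genes was -0.16, and 1 of them fell. PSMD10, also called gankyrin, read 2461, 2217 and 2865 against 2583, 2135 and 2933. PSMD9 read 668, 570.1 and 626 against 681, 693 and 699.6. PSMD5 read 4468, 4522 and 4562 against 5089.7, 5124 and 4948. The libraries of PSMD10 were interleaved, those of PSMD9 nearly touched, and those of PSMD5 were apart. PSMD10 was at -0.016 (SE 0.13, limma adjusted p = 0.93) and PSMD9 at -0.16 (SE 0.098, 0.23), and neither passed. PSMD10 was at 0.28 with the correction, 0.024 with quantile normalization, and 0.07 and 0.091 with CD104high replicate 2 and CD104low replicate 3 left out in turn. PSMD9 was at -0.19 with the correction. PSMD5 fell by 0.16 (SE 0.056, limma adjusted p = 0.0438). That call ended without any 1 of the 6 libraries (0.0609 to 0.136), with quantile normalization (0.106), without the trend (0.0727) and with the correction (-0.029, 0.686).

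The core chaperones act in pairs, PSMG1 with PSMG2 and PSMG3 with PSMG4, which guide the building of the alpha ring. PSMG1 read 2901, 2358 and 2940.3 against 4332, 3352 and 4205. PSMG2 read 3497, 3322 and 3865 against 4243, 3888 and 4315. In both, replicate 2 was the lowest library of either population, and CD104low replicate 2 was nearest to CD104high. PSMG3 read 1520.4, 1301 and 1679 against 1995, 1827 and 2089. PSMG4 read 1546, 1476 and 1700.3 against 2647, 1965 and 2693. All 4 genes fell with populations apart, though in PSMG2 the nearest libraries almost met.

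PSMG4 fell by 0.62 (SE 0.13, limma adjusted p = 0.00487) and PSMG1 by 0.53 (SE 0.12, 0.00777). PSMG3 fell by 0.40 (SE 0.11, limma adjusted p = 0.0154), but did not pass without replicate 1 (0.0589) or replicate 3 (0.0553) of CD104low. PSMG2 fell by 0.22 (SE 0.078, limma adjusted p = 0.0465). It did not pass without replicates 1 and 2 of CD104high in turn (0.133 and 0.15), without replicates 1 and 3 of CD104low in turn (0.138 and 0.14), with quantile normalization (0.0511), without the trend (0.0911) or with the correction (0.0788). Thus 2 of the 4 assembly genes passed without replicate 1, or replicate 3, of CD104low, where 2009 and 2304 of 14420 genes fell.

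PSME3 and PSME4 encode caps other than the 19S particle: PSME3 forms the nuclear activator PA28-gamma, and PSME4 the activator PA200. PSME3 read 11776, 11211 and 11212 against 17972, 15245 and 17245. PSME4 read 5230.2, 4809.8 and 5601 against 5249.6, 5274 and 5963. CD104high was lower in every library for PSME3, and the libraries of PSME4 overlapped. PSME3 fell by 0.56 (SE 0.072, limma adjusted p = 0.000719), or by 0.39 with the correction, whereas PSME4 was at -0.076 (SE 0.08, 0.473). PSME4 ranged from -0.13 without replicate 3 of CD104high to -0.016 without replicate 3 of CD104low, was at -0.019 without replicate 2 of CD104high and -0.028 with quantile normalization, and at -0.14 with the correction; it passed in none of these. PSMF1, the inhibitor PI31, read 7087, 6788 and 6594 against 7218, 7179.5 and 7461. Its libraries were apart by a small margin, and it was at -0.095 (SE 0.058, limma adjusted p = 0.212), not past the threshold, but at -0.17 with the correction (0.0303).

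Of the factors that bind antioxidant response elements, neither NFE2L1 nor NFE2L2 passed the test. NFE2L1 read 19854, 20326 and 17852 in CD104high and 16969, 17829 and 16873 in CD104low. NFE2L2 read 7301, 7212 and 8289.5 against 6699, 6639 and 6894. For both genes every CD104high library lay above every CD104low library, which was so for 3952 of 14420 genes tested. In NFE2L1 the nearest libraries almost met (17852 and 17829). NFE2L1 was at 0.17 (SE 0.067, limma adjusted p = 0.0737), and at -0.06 with the correction. It passed without replicate 3 of CD104high (0.0195) and with the replicate number as a block (0.0272). NFE2L2 was at 0.17 (SE 0.069, limma adjusted p = 0.0765), and had an adjusted p under the threshold once corrected (0.0239) and with quantile normalization (0.0265), but was at 0.11 (0.193) without replicate 3 of CD104high. With the block NFE2L2 passed too (0.0281). Of 10 genes listed for the transcription of proteasome genes 1 rose and 0 fell, with a median of -0.022, where 21.8% of all genes rose and 21.6% fell. It was BACH1, a repressor that competes for the same elements, at 2009, 1812 and 2096 against 1377, 1370.0 and 1368 (a rise of 0.52 on the log2 scale with SE 0.079; limma adjusted p = 0.00136). Without replicate 3 of CD104high 2 genes of this list rose and 1 fell, and without replicate 2 of CD104low 1 rose and 1 fell. Those fits called 6029 and 6390 of 14420 genes. With the correction 2 rose and 3 fell, where 5904 of 14398 genes were called and 3041 of them fell.

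Among 12 partners of the particle that have other symbols, 8 fell and 0 rose, with a median of -0.22, beside 21.6% of all genes and 31.4% of those with a mean of at least 1000. POMP, the maturation protein that completes the beta rings, read 4983, 5237 and 5568 against 10088, 7149 and 9699.5. ADRM1, a ubiquitin receptor of the base, read 6373, 5806 and 6441 against 9843, 8545 and 10028. UCHL5, the deubiquitinase that ADRM1 holds, read 3722, 4043 and 3824 against 5458, 5084 and 5304. None of the 3 overlapped between populations. They fell by 0.76, 0.61 and 0.45 (SE 0.12, 0.079 and 0.063; limma adjusted p = 0.00184, 0.000731 and 0.000992). With the correction POMP was at -0.18 and did not pass (0.0554), ADRM1 was at -0.63 and UCHL5 at -0.23. In that corrected fit 3 of the 12 fell, beside 21.1% of its 14398 genes. Without replicate 1 of CD104low 5 of the 12 fell, beside 2009 of 14420 genes.

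VCP, the ATPase that extracts ubiquitinated proteins for the proteasome, named after its value was seen, was at -0.072 (SE 0.061, limma adjusted p = 0.37), at 0.055 with quantile normalization, and at -0.23 with the correction, where it passed (0.0174). In the list of VCP and its cofactors 5 of 12 genes fell and 1 rose, with a median of -0.078; all 12 have a mean of at least 1000, a level at which 31.4% of genes fell. UFD1, which with its partner hands substrates to VCP, fell by 0.47, the cofactor NSFL1C by 0.31 and FAF1 by 0.20, and UBXN7 rose by 0.27 (SE 0.084, 0.063, 0.068 and 0.089; limma adjusted p = 0.00269, 0.00508, 0.0418 and 0.0356). The calls of FAF1 and UBXN7 ended without replicate 1 or 2 of CD104high and without replicate 1 or 3 of CD104low, with adjusted p of 0.083 to 0.148 for FAF1 and 0.0996 to 0.119 for UBXN7. In each of these fits 2 of the 12 genes fell and 0 rose, where 2009 to 2519 of 14420 genes fell. Both calls also ended without the trend, that of FAF1 with quantile normalization and that of UBXN7 with TMM scaling, edgeR or the correction. With the correction FAF1 was at -0.35 (limma adjusted p = 0.00595), NSFL1C at -0.43 (0.0015), UFD1 at -0.33 (0.008) and UBXN7 at 0.18 (0.0783). The libraries of UBXN7 overlapped.

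Of 11 ubiquitin genes, activating enzymes and shuttles, 6 fell and 0 rose, with a median of -0.18, where 21.6% of all genes and 31.4% of those with a mean of at least 1000 fell. UBA6, an activating enzyme of ubiquitin, read 5854, 6182 and 5512 against 7351, 6902 and 7276. RAD23B, a shuttle that docks on the base, read 15937, 17190.0 and 18410.2 against 20376, 20467 and 21091. Both were lower in every CD104high library. They fell by 0.30 and 0.27 (SE 0.065 and 0.066; limma adjusted p = 0.00683 and 0.0118), and RAD23B had 0.0536 without replicate 1 of CD104high. Of this list 3 fell with replicate 1 of either population left out, and 3 fell and 1 rose without replicate 2 of CD104high. The fits without replicate 1 of CD104high and of CD104low called 4439 and 4097 of 14420 genes, of which 2211 and 2009 fell. The fit without replicate 2 of CD104high called 5073, of which 2519 fell. With quantile normalization 4 of this list fell and 2 rose, where 6118 of 14420 genes were called and 3308 of them fell.

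**Figure D5:**
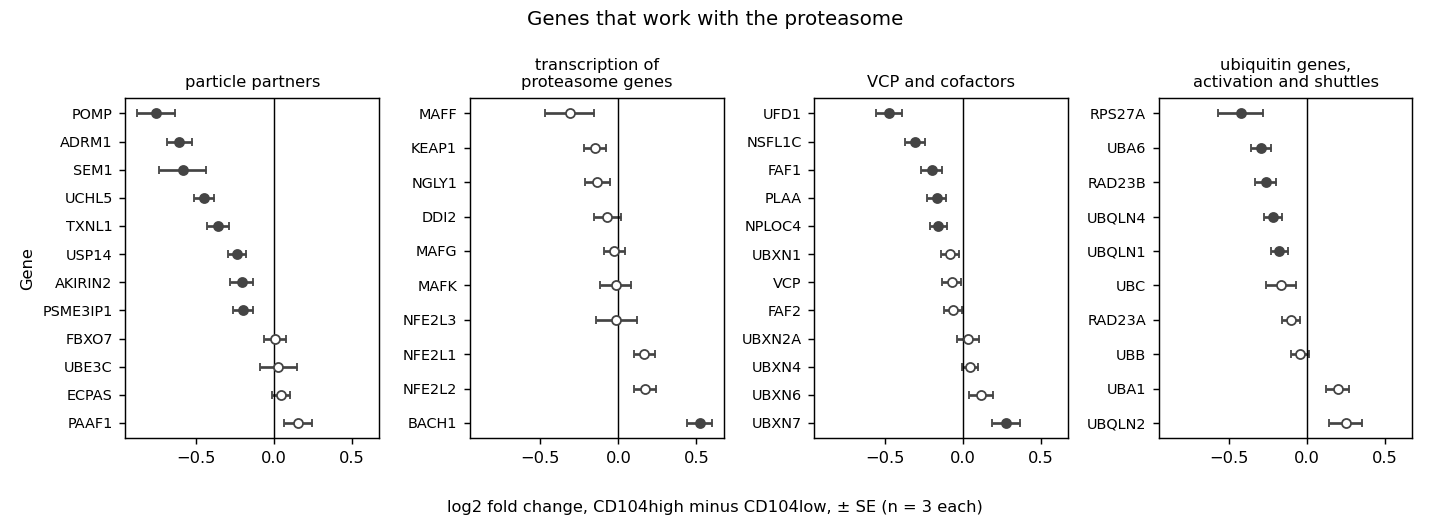
Log2 fold change with its SE (CD104high minus CD104low, n = 3 each) of genes from 4 lists that work with the proteasome; open points have an adjusted p of 0.05 or more in limma. Of the particle partners 8 of 12 lie below 0 and past the threshold, led by POMP, while 1 of 10 transcription genes, BACH1, passed, above 0.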

How the data were processed

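The authors deposited a signal for 15024 genes in 6 libraries, which was taken here to be scaled reads, since the headers give no unit. Per the file headers, their own log2 fold change (with an error), p-value and adjusted p stand beside it. FastQC, Salmon 1.3.0, DESeq2 and the build GRCh38 are named in the submitters' processing notes, without an order; no source used here gives the annotation, filters or model. Each deposited signal was a whole multiple of 1 step per library (100% of values within 0.01). The reads so recovered served for count tests, of which edgeR called 6267 genes. The step of CD104low replicates 1 and 2 and of CD104high replicate 3 was near 1 (1.006, 1.011 and 1.014), where being whole tells less. Reads estimated by Salmon would be rounded estimates.

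Populations were compared with limma 3.58.1 (intensity trend, R 4.3.3) on log2(value + 1), which understates changes of low genes. Tested were the 14420 genes at 10 or more in at least 3 samples, with population as the only term, Benjamini-Hochberg adjustment and a threshold of 0.05. On simulated data of 14399 genes for this comparison, 92% of 100 genes changed 1.4-fold and 100% of 100 changed 2-fold were recovered. Replicates differed by more than sampling noise (chi-square of 13.46 to 46.32 per degree of freedom). Length and GC content of the principal GENCODE 29 transcript, matched for 14994 genes (99.8%), were fitted per library with natural splines of 5 degrees of freedom each. Any gene of the rule could be named, and from the other lists up to 3 called genes per direction with the smallest p, with NFE2L1, NFE2L2, POMP, PSMB5, PSMB9 and ITGB4. 1 gene of the ubiquitin list is included in its counts and is otherwise not reported here. Genes and lists were chosen with earlier results of these data known. The alternatives were other scalings, pseudocounts and filters, no trend, a replicate block, leaving out each library, edgeR 4.0.16 and DESeq2 1.42.0 on recovered reads, and the length and GC correction.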

Additional observations from a re-analysis of the deposited data

How the results depend on the processing

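Over 17 alternatives and 38 proteasome genes, 601 of 646 values kept their direction and their side of the threshold, 36 were no longer past it, 5 newly passed and 4 changed sign. The 4 were all of PSMD10, at 0.024 with quantile normalization, 0.28 with the length and GC correction, 0.07 without CD104high replicate 2 and 0.091 without CD104low replicate 3; with 1 library left out PSMD10 ranged from -0.14 to 0.091. In every alternative 27 to 34 of the 38 fell and 0 rose, and 25 genes fell in each of them. With 1 library left out, 4097 to 6390 of all genes were called, 28 to 32 of the 38, 2 to 4 assembly genes, 5 to 8 particle partners, 1 to 3 transcription genes, 2 to 5 genes of the VCP list and 3 to 6 of the ubiquitin list. Quantile normalization called 6118 of all genes, 2 transcription genes and 3 of the VCP list, with a 19S median of -0.33. Limma without the trend called 5476 of all genes and 2 of the VCP list. With the length and GC correction the medians were -0.35 (all 38), -0.34 (core) and -0.31 (19S). That fit called 5904 of 14398 genes, 3 particle partners and 5 transcription genes. VCP was at 0.055 with quantile normalization and NFE2L1 at -0.060 with the length and GC correction. The cause was not tested.

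With the replicate number as a block, 34 of the 38 genes fell (PSMD4 with an adjusted p of 0.0148) against 26.6% of all genes, and 7876 of all genes were called, against 6257 without it. With this block 5 transcription genes were called, 3 higher and 2 lower, among them NFE2L1 (0.0272) and NFE2L2 (0.0281), and PSMB5 had 0.00235. Same-numbered samples correlated in their deviations by 0.084, 0.36 and 0.32 over genes for replicates 1, 2 and 3. No shared culture or day is named for the numbers, so they were not taken as pairs. With 3 samples per population these correlations cannot decide whether they are. Over all genes every sample correlated best with its own number. Over the 38 genes this was not so: the same-number values were -0.15, 0.33 and 0.62, and CD104high replicate 1 correlated by 0.48 with CD104low replicate 2. In simulated data at this depth, with the same dispersion for every gene, 92% of genes changed 1.4-fold were recovered. Smaller changes, such as those of PSMD4, PSMD9, PSMD10, PSME4 and PSMF1, were not simulated.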
